A study of Mus musculus with 4 samples.

Results

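The genes described here are 10 macrophage markers: 5 that mark resident Kupffer cells (Clec4f, Cd5l, Timd4, Vsig4 and Marco) and 5 that most macrophages express (Msr1, Aif1, Adgre1, Csf1r and Laptm5). Kupffer cells are the resident macrophages of the liver. They sit in the sinusoids, take up bacteria, dying cells and modified lipoproteins from the blood, and are set apart from other macrophages by surface receptors that few other cells make. The 10 genes were found on the array through the RefSeq accession given for each probe: 17 of 41174 probes carried an accession of 1 of the 10 genes, and the 10 stand among 25091 genes tested. Of these 25091, 14064 had a gene symbol, and the others were counted as genes under the name their probe carried. Shares over all genes include both kinds and are not matched to the brightness of the markers. All 17 probes were well above background in all 8 channel readings (both channels of 4 arrays), so no member was lost to the filter on dim probes, and every marker was measured in whole liver RNA.

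The livers came from 8-week-old female mice of the outbred stock CD-1. On each of 4 two-colour arrays RNA of livers treated with Cux2 siRNA was hybridised with RNA of livers treated with a non-specific siRNA, both pooled over mice. Cux2 is a homeobox transcription factor that, within liver, is made mainly in females, and the siRNA was given to find out which genes change when it is depleted. Mice given Cux2 siRNA were killed 5 days later (5 mice, in pools of 3 and 2) or 8 days later (4 mice, in pools of 2 and 2), so each array held treated mice of its own. The series description puts the 13 control mice into 2 pools, of 6 or 7, whereas every sample description gives 6. With 2 pools for 4 arrays some arrays share a control pool, but neither the pool on each array nor the day on which the controls were killed is given in the sources used here. The route, dose and carrier of the siRNA are not given there either. Replicate 1 of each day had the Cux2 siRNA pool in Alexa 647 and replicate 2 had it in Alexa 555, so replicate number and dye orientation cannot be told apart.

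Ratios are given as log2 of Cux2 siRNA over its non-specific control, so that -1 means a 2-fold lower signal. Standard errors (SE), 95% intervals and p-values are those of a single limma model of all 4 arrays, its p-values adjusted by the Benjamini-Hochberg method over all genes tested, and a gene passed at an adjusted p under 0.05. Each array stands for pools, not single mice, and the p-values therefore rest on variation among pools and dye orientations. The model treats the 4 arrays as independent. Its SE, intervals and p-values leave out that the control pools recur over the arrays. Cux2 itself was below 0 on every array: day 5 gave -1.91 and -1.70, day 8 gave -1.07 and -1.20. The liver identity of the RNA was checked with hepatocyte markers: all 9 that were tested, albumin among them, were well above background in every channel reading. A lower signal in whole liver RNA cannot tell fewer macrophages from less RNA per macrophage.

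RefSeq promoters (build GRCm38.p6, 250 bases before to 50 bases after the start of the gene) were matched for 7 of the 10 markers, all but Msr1, Adgre1 and Csf1r. 4 are shown: Marco and Aif1, which had the largest falls, Clec4f, whose expression is restricted to Kupffer cells in mice, and Vsig4, which stayed closest to the control level. They were searched on both strands for the PU box GAGGAA, the purine-rich core bound by the macrophage factor PU.1, for the STAT dimer site TTCNNNGAA, and for the interferon response pair, GAAA followed after any 2 bases by GAAA. Capitals mark the matches, and no 2 of them overlap.
Marco, chr1:120504975-120505274, minus strand: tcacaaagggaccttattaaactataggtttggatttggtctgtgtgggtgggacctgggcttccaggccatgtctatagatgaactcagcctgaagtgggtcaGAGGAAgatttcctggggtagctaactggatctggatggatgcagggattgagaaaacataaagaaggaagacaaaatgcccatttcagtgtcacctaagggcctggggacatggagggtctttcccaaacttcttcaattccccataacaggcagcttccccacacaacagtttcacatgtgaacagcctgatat
Aif1, chr17:35176003-35176302, minus strand: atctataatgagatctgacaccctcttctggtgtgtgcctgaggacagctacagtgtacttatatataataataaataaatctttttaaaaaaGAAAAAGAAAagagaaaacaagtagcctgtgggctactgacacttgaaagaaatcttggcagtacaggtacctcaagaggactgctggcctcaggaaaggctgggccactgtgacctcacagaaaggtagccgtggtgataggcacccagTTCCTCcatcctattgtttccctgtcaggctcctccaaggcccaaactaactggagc
Clec4f, chr6:83656067-83656366, minus strand: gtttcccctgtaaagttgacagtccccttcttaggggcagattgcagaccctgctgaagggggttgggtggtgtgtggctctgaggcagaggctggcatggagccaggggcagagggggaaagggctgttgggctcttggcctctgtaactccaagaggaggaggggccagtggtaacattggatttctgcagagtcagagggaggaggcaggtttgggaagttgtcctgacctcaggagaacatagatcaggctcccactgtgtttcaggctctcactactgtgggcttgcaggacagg
Vsig4, chrX:96293389-96293688, minus strand: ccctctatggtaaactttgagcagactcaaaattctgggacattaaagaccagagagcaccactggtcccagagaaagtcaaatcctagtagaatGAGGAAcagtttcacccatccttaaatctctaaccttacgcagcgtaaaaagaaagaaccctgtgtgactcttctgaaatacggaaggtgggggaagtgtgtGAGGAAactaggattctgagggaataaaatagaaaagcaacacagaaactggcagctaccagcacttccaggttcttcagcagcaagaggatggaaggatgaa
A PU box was present in 5 of the 7 promoters and in 28.3% of all 32851 promoters of the table. Vsig4 held 2, Marco and Aif1 held 1 each, and Clec4f held none. The STAT site occurred in 0 of the 7 and in 8.3% of all promoters, and the interferon response pair in 1, in an A-rich stretch of Aif1, and in 3.44% of all. Marco and Vsig4, at the ends of the order of change, both carried the PU box in this window.

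Over both days 8 of the 10 markers fell and 0 rose. Of all genes tested 31.1% were called over both days, 16.3% lower and 14.8% higher. The members' median was -0.66, and that of all genes was 0.00. All markers but Vsig4 were below 0 on all 4 arrays, as were 26.1% of all genes. With median centring of the arrays in place of loess, 0 of the 10 passed over both days, at day 5 or at day 8, although all 10 means stayed below 0 and 5 had an unadjusted p under 0.05 over both days (limma). That setting left 269 calls among all genes over both days, against 7797 with loess. By day it left 5 calls at day 5 and 3 at day 8, against 4216 and 3595 with loess, so the loss was not particular to the markers. Marco and Aif1 stood apart from the rest: Marco had the lowest ratio of the 10 on 4 of 4 arrays, and Aif1 the next lowest on 4 of 4. Timd4, Cd5l, Laptm5, Msr1, Adgre1 and Clec4f followed between -0.80 and -0.39, and Csf1r and Vsig4 did not pass. Between Timd4 and Vsig4, each gene differed from the next in the order by less than or about the spread of that difference over the arrays, and the lower of the pair was lower on 2 or 3 of the 4 arrays. The plot of the members' ratios shows the individual arrays.

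**Figure D1:**
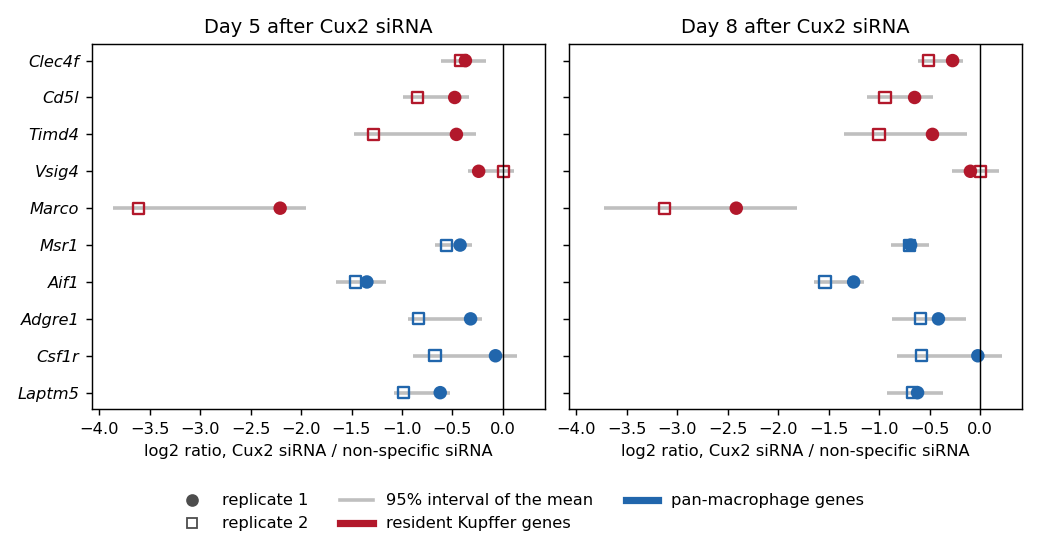
Log2 ratio of each marker (Cux2 siRNA over non-specific siRNA, horizontal axis) at day 5 and day 8, with filled circles for replicate 1, open squares for replicate 2 and grey bars for the 95% interval of the day's mean. Marco lies far to the left on both days, Aif1 next, and Vsig4 and Csf1r have intervals that include 0.

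Among the resident Kupffer cell genes, Marco is a class A scavenger receptor that binds bacteria and particles. Its normalised log2 signal was 10.48 and 8.95 in the Cux2 siRNA pools of day 5 and 10.30 and 9.56 in those of day 8, against 12.69, 12.57, 12.72 and 12.68 in the control pools on the same arrays. The control signals lay close together and the treated ones did not, and the highest treated value was below the lowest control value. The control readings came from only 2 pools, whereas each treated reading came from a pool of its own, so the 2 spreads are not alike in kind. Its log2 ratios were -2.21 and -3.61 at day 5 and -2.42 and -3.13 at day 8, lower in replicate 2 than in replicate 1 on both days. Each day passed alone (day 5 mean -2.91, adjusted p = 0.0140, and day 8 mean -2.77, adjusted p = 0.0170, limma), and the mean over both days fell by 2.84 (SE 0.26, 95% interval -3.52 to -2.17, adjusted p = 0.00331, limma), 7.17-fold lower, which leaves 13.9% of the control signal. Only 53 of the 25091 genes tested had a lower mean.

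The other resident genes moved less. Cd5l, a protein that macrophages secrete and that protects them from apoptosis, had day 5 log2 ratios of -0.48 and -0.85 and day 8 ratios of -0.65 and -0.94. Both replicates were below 0 on each day, and the mean fell by 0.73 (SE 0.09, adjusted p = 0.00622, limma), to 60.3% of the control signal. Timd4, a receptor for phosphatidylserine on dying cells, had -0.46 and -1.28 at day 5 and -0.47 and -1.0 at day 8. It was below 0 on all 4 arrays, but replicate 2 was far lower than replicate 1 on each day. Its mean fell by 0.80 (SE 0.16, adjusted p = 0.0236, limma) and no longer passed when replicate 2 of day 5 (adjusted p = 0.0527) or of day 8 (0.0827) was left out, or from the scanner's processed signals (0.0696). Clec4f, a galactose-binding lectin, had -0.37 and -0.42 at day 5 and -0.27 and -0.51 at day 8. Its mean fell by 0.39 (SE 0.06, adjusted p = 0.011), to 76.1% of the control signal, and it no longer passed when replicate 2 of day 5 was left out (adjusted p = 0.0566, limma).

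Vsig4 is the Kupffer cell receptor for complement-coated particles. Its normalised log2 signal was 12.27 and 12.24 in the Cux2 siRNA pools of day 5 and 12.46 and 12.30 in those of day 8, against 12.52, 12.23, 12.56 and 12.29 in the control pools. Treated and control values overlapped. The log2 ratios were -0.24 and 0.00 at day 5 and -0.10 and 0.01 at day 8, with a mean of -0.08 over both days (95% interval -0.25 to 0.08, adjusted p = 0.39, limma). Within that interval a fall as large as the mean of Clec4f, the nearest resident gene, is not included.

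Among the pan-macrophage genes Aif1, a calcium-binding protein that bundles actin in macrophages, had the largest fall. Its normalised log2 signal was 10.73 and 10.48 in the Cux2 siRNA pools of day 5 and 10.84 and 10.51 in those of day 8, against 12.07, 11.95, 12.09 and 12.04 in the control pools. The groups did not overlap, and all 4 treated values lay within 0.4 of each other. Day 5 gave log2 ratios of -1.35 and -1.46 and day 8 gave -1.25 and -1.54, with a mean fall of 1.40 (SE 0.07, adjusted p = 0.00109, limma), to 37.9% of the control signal. A second probe of the gene gave a mean of -1.51.

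Msr1, a class A scavenger receptor for modified lipoproteins and thus a relative of Marco, had day 5 log2 ratios of -0.42 and -0.56 and day 8 ratios of -0.69 and -0.70. Its mean fell by 0.59 (SE 0.05, adjusted p = 0.00289, limma), and 2 further probes gave -0.76 and -0.83. Laptm5, a lysosomal membrane protein of blood cells, had -0.62 and -0.99 at day 5 and -0.62 and -0.67 at day 8, with a mean fall of 0.72 (SE 0.07, adjusted p = 0.00426), to 60.6% of the control signal. Its ratio depended on how background was handled: the mean was -0.29 without background subtraction and -0.98 with the scanner's processed signals, and it passed with both. Adgre1, which encodes the macrophage surface antigen F4/80, had -0.32 and -0.83 at day 5 and -0.41 and -0.59 at day 8. Its mean fell by 0.54 (SE 0.10, adjusted p = 0.0177), to 68.8% of the control signal. It no longer passed when replicate 2 of day 8 was left out (adjusted p = 0.0718) or from the processed signals (0.0504), and a second probe gave a mean of -0.43.

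Csf1r is the receptor for the growth factors on which macrophages depend for survival. Its log2 ratios were -0.07 and -0.67 at day 5 and -0.02 and -0.58 at day 8, near 0 in both replicates 1 and clearly below it in both replicates 2. The mean was -0.34 (95% interval -0.70 to 0.03, adjusted p = 0.139, limma). Of its 2 further probes the brighter gave 0.10, -0.67, 0.00 and -0.64 on the same arrays, the same split by replicate, and the dimmest gave a mean of -0.01. Replicate 1 minus replicate 2, averaged over the days, was 0.58 for Csf1r, 0.68 for Timd4 and 1.06 for Marco, against a median absolute value of 0.11 over all genes tested. A gap smaller than that of Csf1r was seen in 96.5% of genes. Dye orientation and pools both change with the replicate number, so the share of each in these gaps cannot be told apart.

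The signals of the other markers separated the pools to different degrees. For Clec4f the normalised log2 signal was 12.21 to 12.50 in the Cux2 siRNA pools, against 12.66 to 12.78 in the control pools. For Cd5l it was 13.44 to 13.84 in the Cux2 siRNA pools, against 14.15 to 14.38 in the control pools. The groups did not overlap for either gene, nor for Timd4 (9.57 to 10.12 against 10.57 to 10.92) or Adgre1 (11.91 to 12.73 against 12.74 to 13.10), where the gap was smallest. They overlapped for Msr1 (10.54 to 11.68 against 11.23 to 12.23) and for Laptm5 (6.36 to 7.80 against 6.98 to 8.46). For both of these the array of day 8 replicate 1 was low in both channels, so the overlap lay between arrays, and within every array the treated signal was the lower one. Csf1r also overlapped (11.56 to 12.45 against 12.23 to 12.48). The plot of channel signals shows each pair.

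**Figure D2:**
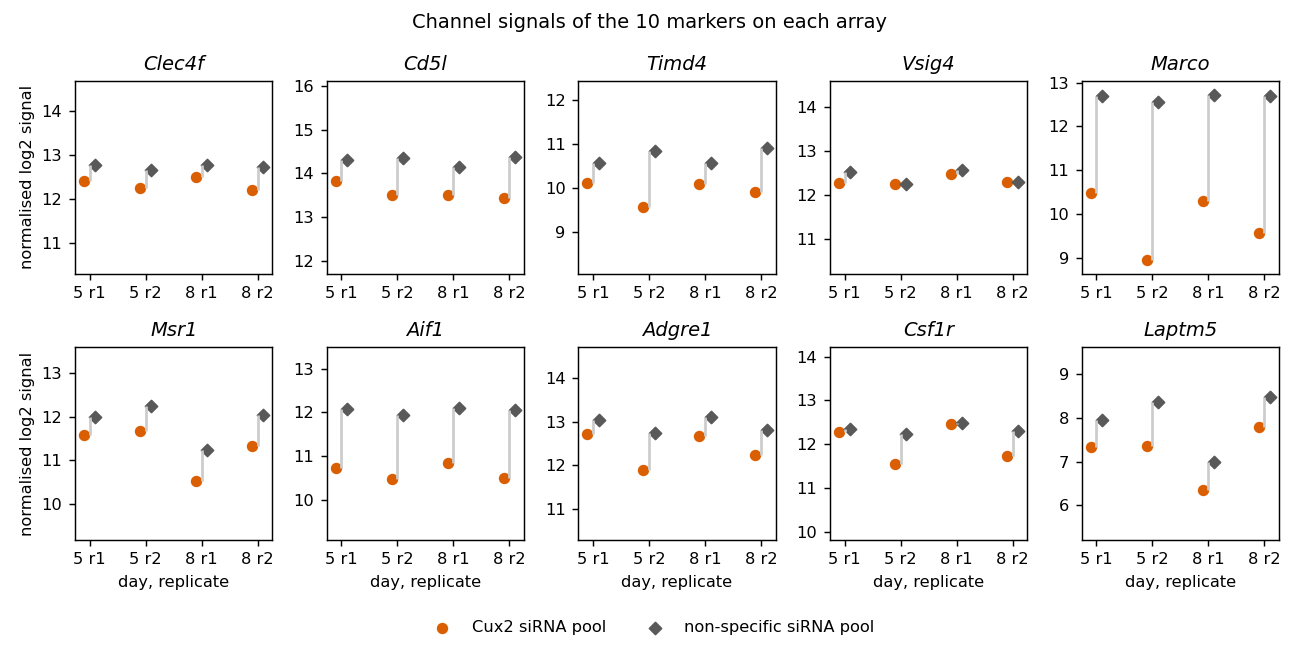
Normalised log2 signal (vertical axis, 4.4 log2 units in each panel) of the Cux2 siRNA pool (orange circles) and of the non-specific siRNA pool (grey diamonds) on each array, by day and replicate (r1, r2). The Marco and Aif1 control signals form a level line well above the treated signals, while the Vsig4 signals of both pools overlap. The control signals come from only 2 pools, some of them read on several arrays.

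By day, 6 markers fell at day 5 (Clec4f, Cd5l, Marco, Msr1, Aif1 and Laptm5), and 0 rose, against 9.43% of all genes lower and 7.38% higher. The same 6 fell at day 8 and 0 rose, against 8.05% lower and 6.27% higher. Every marker but Vsig4 was below 0 on both arrays of day 5 and on both of day 8, as were 36.1% and 34.8% of all genes. The days may share control pools, since which pool was on which array is not given, so the second count is not taken as an independent repeat of the first. Timd4 averaged -0.87 at day 5 (adjusted p = 0.0690, limma) and -0.74 at day 8 (0.108), and Adgre1 averaged -0.58 (0.0556) and -0.50 (0.0822). Both had an unadjusted p under 0.05 on each day without passing after adjustment. Most of these calls needed both arrays of the day. Without replicate 2 of the day, 0 of the 10 passed at day 5 and 0 at day 8 (5 had an unadjusted p under 0.05 in each case, limma), and without replicate 1, 3 passed at day 5 (Aif1, Laptm5 and Marco) and 1 at day 8 (Aif1). The loss was not particular to the markers: calls in either direction over all genes numbered 246 at day 5 and 137 at day 8 without replicate 2, and 915 and 763 without replicate 1, against 4216 and 3595 with all arrays. From the scanner's processed signals 2 markers passed on each day, with 2015 calls over all genes at day 5 and 1476 at day 8. Without background subtraction 3 markers passed on each day, with 2876 and 2104 calls over all genes. With a normexp offset of 16 Clec4f did not pass at day 5 (adjusted p = 0.0635, limma) or day 8 (0.0692). With 1 array left in a day, that array was taken to vary as the pair of the other day.

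No difference between the days passed. Day 8 minus day 5 lay between -0.20 (Msr1, 95% interval -0.47 to 0.06) and 0.16 (Laptm5, -0.23 to 0.55), with an adjusted p of 1.00 for each and 0 of the 10 at an unadjusted p under 0.05 (limma). Of all genes tested 0% were called, and 620 had an unadjusted p under 0.05. Marco stood at -2.91 at day 5 and -2.77 at day 8, and the interval of its difference ran from -1.21 to 1.49, so that a more than 2-fold change between the days, up or down, lay within it. For Clec4f and Aif1 the interval was narrower, from -0.31 to 0.32 and from -0.34 to 0.36.

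The resident genes were then set against the pan-macrophage genes on each array. The mean log2 ratio of the 5 resident genes was -0.75 and -1.23 at day 5 and -0.78 and -1.12 at day 8, against -0.56 and -0.90 at day 5 and -0.60 and -0.82 at day 8 for the 5 pan-macrophage genes. The resident mean was lower on each of the 4 arrays, with a difference of -0.26 ± 0.09 at day 5 and -0.24 ± 0.08 at day 8 (SD, n = 2 arrays each). This direction rested on Marco. In settings chosen after the data were seen, without it the resident mean stood above the pan-macrophage mean on each array, by 0.22 at day 5 and 0.22 at day 8. Without both Marco and Aif1 the difference was 0.050 and 0.043, and with medians in place of means it was -0.024 and -0.064. Each group thus held 1 gene with a large fall, 3 with moderate falls and 1 that did not pass, and no p is given for the groups, because the genes were picked with earlier results of these data known.

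**Figure D3:**
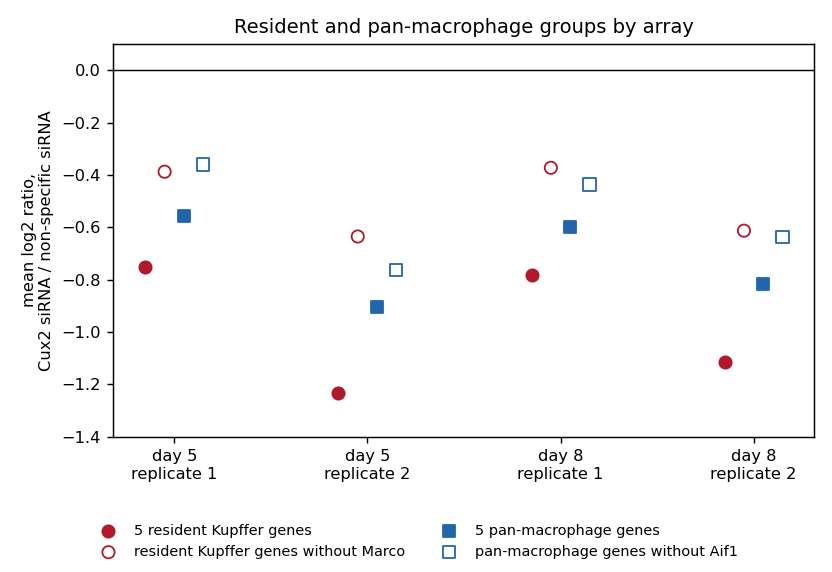
Mean log2 ratio (vertical axis) of the 5 resident Kupffer cell genes (filled red circles) and the 5 pan-macrophage genes (filled blue squares) on each array, and of the same groups without Marco or Aif1 (open symbols). The filled red circles are the lowest point on every array, and the open red circles lie above the filled blue squares.

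Wider lists of macrophage genes were lower in most but not all members. Of 22 other genes linked to Kupffer cells, all tested, 14 fell and 2 rose over both days (median -0.41). Of 29 other macrophage genes 27 were tested, and of these 18 fell and 1 rose (median -0.75). Together 32 of 49 fell, 3 rose and 14 did not pass, against 16.3% of all genes lower and 14.8% higher over both days. The complement chain C1qc, which Kupffer cells make, fell by 0.61 (SE 0.13), and its partners C1qa and C1qb, named after their values were seen, by 0.76 (SE 0.12) and 0.66 (SE 0.16). All were below 0 on every array but lower in replicates 2 than in replicates 1. C1qc gave -0.39 and -0.31 in replicates 1 and -0.86 and -0.89 in replicates 2. The iron exporter Slc40a1 fell by 0.32 (SE 0.06), and the lysosomal proteases Ctsb and Ctss fell by 0.98 (SE 0.14) and 1.19 (SE 0.17). Slc40a1 and Ctsb were the brightest genes of their lists, with mean log2 signals of 15.86 and 16.96. Cd5l, the brightest of the markers, had 13.93. Which liver cells gave the Slc40a1 and Ctsb signals was not tested, so their falls need not be those of macrophages. Lysozyme (Lyz2) did not pass and split by replicate as Csf1r did, with 0.17 and -1.56 at day 5 and 0.10 and -0.57 at day 8.

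Some genes at the edges of these lists were chosen after their values were seen. Large falls were seen in Irf7 (-2.54, SE 0.05), a factor of the interferon response, Ms4a6c (-2.03, SE 0.09), Fcgr1, the high-affinity receptor for antibody (-1.76, SE 0.24), and Siglec1, a sialic acid receptor (-1.71, SE 0.13). Macrophage genes near 0, like Vsig4, were the low-affinity antibody receptor Fcgr3 (-0.11, adjusted p = 0.159, limma) and the lipid receptor Trem2 (0.04, adjusted p = 0.623). The mannose receptor Mrc1, which sinusoidal endothelium also makes, rose by 0.26 (SE 0.05, adjusted p = 0.0234).

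The growth factor axis of macrophages was lower in part. Csf1, a ligand of Csf1r, had day 5 log2 ratios of -0.41 and -0.64 and day 8 ratios of -0.31 and -0.69. It was below 0 on all 4 arrays, and its mean fell by 0.51 (SE 0.08, adjusted p = 0.0135, limma). The other ligand, Il34, averaged -0.19 and did not pass (adjusted p = 0.10). Of the 5 genes of this list that were tested, 3 fell and 0 rose, against 16.3% of all genes lower and 14.8% higher over both days. Among 13 transcription factors of macrophages 4 fell and 3 rose. Nr1h3, Spic, Id3 and Id1 of this list were also counted among the other Kupffer genes above. Spi1, which encodes PU.1, fell by 0.19 (SE 0.05, adjusted p = 0.0393, limma), and Spic, a PU.1 relative, by 0.55 (SE 0.10). Id3, which Kupffer cells need and other liver cells also express, rose by 0.80 (SE 0.10). Nr1h3, the liver X receptor alpha, gave 0.40 and -0.31 at day 5 and 0.52 and -1.48 at day 8, above 0 in both replicates 1 and below it in both replicates 2.

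Genes for scavenging and for the uptake of dying cells moved both ways. Of 18 tested, 6 fell and 4 rose, with a median of -0.08. Calls in both directions were also common over all genes, with 16.3% lower and 14.8% higher over both days. The scavenger receptor Colec12, chosen after its value was seen, rose by 0.76 (SE 0.09, adjusted p = 0.00606, limma). The Timd4 relatives Timd2 and Havcr1 fell by 0.32 (SE 0.05) and 0.31 (SE 0.05), and Pros1, a bridging ligand of the TAM receptors, rose by 0.25 (SE 0.05). Of 13 genes of macrophage activation that were tested, 8 fell and 0 rose (median -0.49). The monocyte-attracting chemokine Ccl2 had the lowest mean of the 13 (-2.34, SE 0.09).

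By root mean square difference of the 4 log2 ratios, the named genes most like Marco were Irgm2 (0.219), Cd274 (0.233) and Cmpk2 (0.267). Those most like Aif1 were Serping1 (0.070), Bub1 (0.083) and Mlkl (0.088). For Adgre1 they were Trim26 (0.048), Spic (0.054) and Syne1 (0.055), and for Clec4f they were Rnpepl1 (0.021), Khsrp (0.024) and Cnppd1 (0.028). The likeness rests on 4 arrays, of which some share a control pool, among 14063 genes with a symbol.

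Of the markers of other blood cells, those of monocytes and neutrophils fell in most members tested, whereas 7 each of the lymphocyte and dendritic cell markers did not pass. The share over all genes was 16.3% lower and 14.8% higher over both days. Monocyte markers fell in 8 of 12 tested with 0 rising (median -1.02), among them Plac8 (-2.21, SE 0.12). Their summed normalised signal was 25306 to 34603 in the Cux2 siRNA pools, against 57528 to 61814 in the control pools. Much of the treated sum was Fn1, the brightest gene of the list. Its log2 signal was 14.25 and 14.58 in the Cux2 siRNA pools of day 5, against 12.62 and 12.27 for Plac8. The log2 ratios of Fn1 lay between -0.48 and -0.11, and which liver cells gave its signal was not tested. The 10 macrophage markers summed to 34310 to 44180 in the treated and 60811 to 63705 in the control pools. Neutrophil markers fell in 7 of 11, with sums of 3065 to 4531 against 13250 to 18442, most of it S100a8 and S100a9. The neutrophil median was -0.34. Lymphocyte markers fell in 6 of 14 with 1 rising, with a median of -0.17 and sums of 2911 to 3408 against 4215 to 5097. Dendritic cell markers fell in 4 of 11 with a median of -0.14. Their sums were 14872 to 19265 against 44465 to 54507, nearly all of it Bst2 (-1.73), an interferon-induced membrane protein that other cells also make. Ly6c2, Elane, Cd8a and Trbc2 of these lists were not among the genes tested. The part of these cells in the macrophage genes' falls was not tested.

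Markers of the other liver cells moved both ways or mostly did not pass. Beside the counts below, 16.3% of all genes fell and 14.8% rose over both days. Sinusoidal endothelial markers fell in 4 of 12 and rose in 2, with a median of -0.10 and sums of 89398 to 93452 in the Cux2 siRNA pools, against 80705 to 91218 in the control pools. Stellate cell markers fell in 5 of 12 and rose in 3 (median -0.21), bile duct markers fell in 0 of 6 and rose in 1 (median 0.07), and erythroid markers fell in 0 of 5 and rose in 2 (median -0.16). Hepatocyte markers fell in 1 of 9 and rose in 1, with a median of 0.02, and the treated and control sums overlapped (1246700 to 1718030 against 1169060 to 2001690). This median joins opposite shifts. On the single arrays the hepatocyte median was 0.25 and 0.31 in replicates 1 and -0.58 and -0.59 in replicates 2. Albumin (Alb) also followed the replicate number, with 0.82 and 0.91 in replicates 1 and -0.77 and -0.64 in replicates 2.

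**Figure D4:**
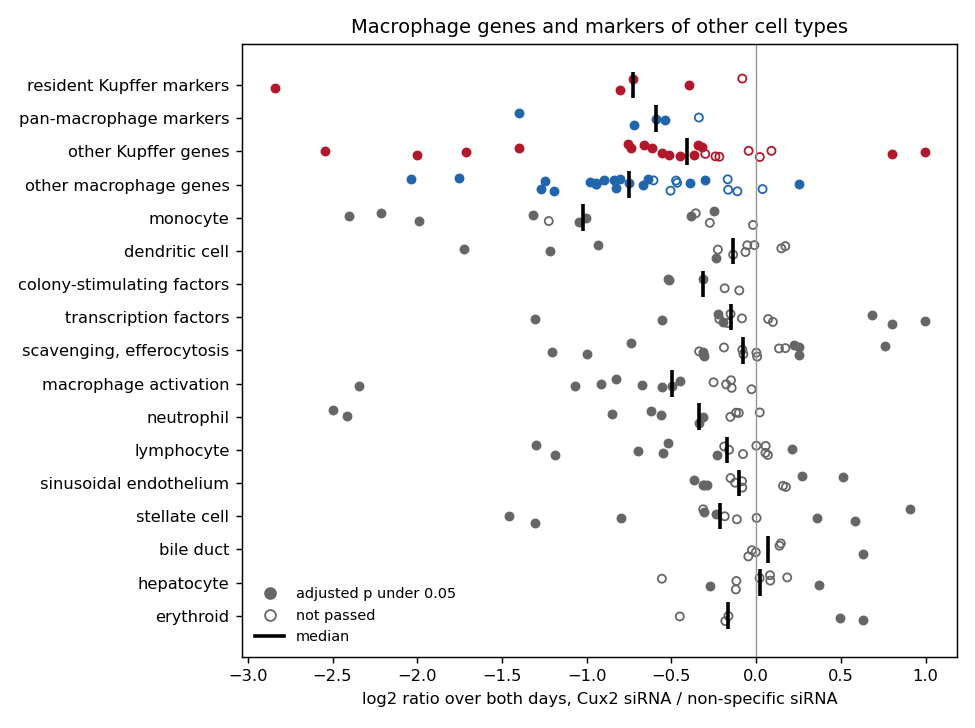
Log2 ratio over both days (horizontal axis) of each tested gene, by list, with filled points for genes with an adjusted p under 0.05, open points for the others and a black bar for the median. The 4 lists of Kupffer cell and macrophage markers and the monocyte list have medians between -1.02 and -0.41, the transcription factors -0.15 and the scavenging genes -0.08, and those of endothelium, bile duct and hepatocytes lie between -0.10 and 0.07. The medians of the remaining lists are -0.49 (macrophage activation), -0.34 (neutrophil), -0.31 (colony-stimulating factors), -0.21 (stellate cell), -0.17 (lymphocyte), -0.16 (erythroid) and -0.14 (dendritic cell).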

How the data were processed

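Per the file headers, version 10.7.1.1 of Agilent's Feature Extraction software read the arrays. Deposited median intensities, of spots and their surroundings, were the starting point, in place of the mean signals first planned. The deposited processed intensities (background-subtracted, detrended, dye-normalized, per the file headers) and the authors' table of log10 ratios, equal to the scanner's log10 ratio within 1e-05 once replicate 2 was sign-turned, served as alternatives. The scanner's p-value for each spot's deposited log ratio entered no test. The design had named a probe's gene name as a second key, but the tables used here hold none, so probes were named by RefSeq accession against GRCm38.p6 (23374 of 41174 probes).

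Normexp background correction (offset 50) used limma 3.58.1 (R 4.3.3). Log2 ratios were normalized by loess with control spots at weight 0, control and outlier spots were dropped and spots averaged per probe. The 4 genes whose probe lost a value to an outlier spot were left out. Probes well above background in at least 2 of 8 channel readings were kept, and the brightest stood for its gene. Signals per channel were taken after loess and Aquantile. A fit over 4 arrays estimated each day, their mean and their difference (2 residual degrees of freedom, 2.77 from the prior). It was also run on simulated data with independent arrays, which leave out the shared control pools and so cannot test their effect on the p-values. Median spot signals lay between 381.5 and 471.5, over backgrounds of 306 to 342, and precision is limited by how few arrays there are.

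The 10 members and the 15 other lists were chosen with earlier results of these data known. The lists share some genes, such as Id1, Id3, Spic, Nr1h3, Cdh5, Mrc1, Cd163, Stab2 and Csf3r, which were counted in each, so the list counts are not separate. Named were all members, the partners Csf1, Il34, Spi1, Nr1h3, Spic and Id3, the brightest genes of each list where a result turns on them, and the 3 nearest in pattern for 4 members.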

Additional observations from a re-analysis of the deposited data

How the results depend on the processing

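All 10 members averaged below 0 over both days under each alternative, with a median between -0.74 and -0.51. The count that fell over both days was 8, and with median centring in place of loess it was 0 (5 at an unadjusted p under 0.05, limma), as were those of day 5 (0) and day 8 (0), each 6 as reported. Over all genes median centring left 5 calls at day 5 and 3 at day 8. A normexp offset of 16 gave 5 on each day, and at day 5 the mean of all kept probes and the stricter filter on dim probes gave 7. From the processed signals, as from the authors' log10 ratios, 2 fell at day 5 and 2 at day 8, and without background subtraction 3 and 3. Over both days, the calls of Adgre1 and Timd4 were lost with the processed signals (adjusted p = 0.0504 and 0.0696, limma) and without background subtraction (0.0526 and 0.0778). Leaving out 1 array gave 6 to 8 members over both days, 0 to 6 at day 5 and 0 to 6 at day 8. The difference of resident and pan-macrophage means ranged with 1 array left out from -0.33 to -0.19 at day 5 and from -0.30 to -0.18 at day 8. From the processed signals it was -0.17 at day 8. Chosen after seeing the data, the difference at days 5 and 8 was 0.22 and 0.22 without Marco, 0.050 and 0.043 without Marco and Aif1, and -0.024 and -0.064 with medians.

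With the replicate number as a block, 9 members fell at each day and over both, Csf1r among them (-0.34, adjusted p = 0.00364, limma). Deviations of same-numbered arrays correlated at 0.50 over genes, but 2 pairs that share only a number and a dye orientation do not show pairing. Over both days the block raised the calls over all genes to 11254, and 7797 were called without it. Median centring left 269 and leaving out 1 array 3902 to 5469. The cause of these changes was not tested. The alternative of naming probes by accession alone was not run, since it equals the naming used.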
